A study of Mus musculus with 74 samples.

Results

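The sensory neuropeptides described here are 10 genes, Gal, Npy, Vip, Sst, Tac1, Calca, Calcb, Adcyap1, Nts and Nppb, each the precursor of a peptide signal made by neurons of the dorsal root ganglion (DRG). They were chosen by name and are 10 of the 53379 genes counted in the files. The study asked how lumbar sensory neurons respond to an injury of their peripheral axon, which regrows, and to an injury of the spinal cord, after which the central axon does not. The peripheral injury was a crush of the sciatic nerve (SNI) and the central injury was a dorsal hemisection of the spinal cord at T9/10 (SCI). RNA was sequenced from whole L4 DRG and from L4 dorsal column neurons sorted by flow cytometry for yellow fluorescent protein (YFP). All mice were female. The whole DRG came from C57BL/6 mice of 10-12 weeks with a wild type genotype, 4 uninjured and 4 collected 1 day (1d) after SCI. The sorted neurons came from mice of the Thy1YFP16 strain, 10-20 weeks old, in which Thy1 regulatory sequence drives YFP in a subset of neurons that the labels call dorsal column sensory neurons. Their genotype label counts upward from Thy1YFP16 by 1 from well to well, as a filled spreadsheet column would, while the strain label stays the same. The sorted groups were 6 naive mice, and 4 mice each at 1d after SNI, 3 days (3d) after SNI, 1d after SCI and 3d after SCI. Each sorted mouse gave 3 wells of about 100 cells, which are technical replicates and were summed. Of the naive mice, 4 belonged to a first set of libraries and 2 to a later set, marked by a year in its titles and called the second set here, and every injured group had 2 mice in each set. Where values are given per mouse, those of the first set come before those of the second. Reads on genes ran from 21959030 to 44493319 per whole DRG library and from 30518187 to 83599972 per sorted mouse.

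Neuropeptides are cut from larger precursors by convertases in the regulated secretory pathway, stored in dense-core vesicles and released from both ends of a sensory axon, where they act on G protein-coupled receptors of spinal neurons, vessels, glia and immune cells. Small-diameter nociceptors are the classical source of calcitonin gene-related peptide (CGRP) and substance P, and separate small classes of neurons make somatostatin and natriuretic peptide and take part in itch. After a peripheral axon is cut, sensory neurons are known to change their peptides, with galanin, neuropeptide Y, vasoactive intestinal peptide and PACAP rising and CGRP and substance P falling.

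Markers of the sorted cells were set beside those of the whole ganglion first, because the peptides differ between kinds of neuron. Levels are given as reads of a gene per 1000000 normalised reads (CPM). Whole DRG RNA was depleted of ribosomal RNA before library preparation, and the sorted cells were prepared with another kit, for low input. Differences in level between whole DRG and sorted cells thus cannot be told apart from differences of preparation. The summed level of 8 pan-neuronal markers was 10522 CPM in uninjured whole DRG, with a median of 18973 CPM in naive sorted mice, where it ran from 5618 to 24633 CPM. The 9 markers of large-diameter sensory neurons summed to 6731 CPM in uninjured whole DRG and to a median of 6186 CPM in naive sorted mice. The 6 markers of peptidergic nociceptors summed to 1716 CPM in the uninjured whole ganglion, led by Scn10a. In the naive sorted mice that sum was 4.50, 624, 53.9 and 349 CPM in the first set and 679 and 3.02 CPM in the second set, so that naive samples labelled alike differed more than 100-fold in their nociceptor markers. Markers of satellite glia and Schwann cells, 9 genes led by Pmp22, exceeded the pan-neuronal sum in 22 of the 66 wells, which are called glia-rich here. Such wells came from 15 of the 22 mice. They were 7 of 18 naive wells, 4 of 12 wells each at SNI 1d, SNI 3d and SCI 3d, and 3 of 12 at SCI 1d. For 3 mice, the 3d naive mouse and mouse 1 of SNI 3d and of SCI 3d, all in the second set, no other well was left. The labels call all of these wells sorted neurons, and the 2 genes called below, Adcyap1 and Calcb, are also given without the glia-rich wells.

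Levels of different genes were compared per kilobase of exon. In uninjured whole DRG, Calca stood first with a median of 825 CPM per kilobase, followed by Calcb at 84.1, Tac1 at 72.4 and Adcyap1 at 19.2 CPM per kilobase. The ranges of Calcb and Tac1 overlapped. Nppb, Nts, Sst and Gal lay together between medians of 7.98 and 4.22 CPM per kilobase, each overlapping its neighbour, and Npy at 0.308 and Vip at 0.0401 CPM per kilobase closed the order. In naive sorted mice Calca and Calcb again led, with medians of 864 and 260 CPM per kilobase. Tac1 followed at 18.7, Nts at 10.1, Adcyap1 at 8.74, Gal at 5.24 and Npy at 0.920 CPM per kilobase. Between neighbours in that order the mice overlapped. The order was another one 1d after SNI, when Nts at 186 and Adcyap1 at 185 CPM per kilobase came first and Calca stood at 79.6. At 3d after SNI, Npy at 295 and Gal at 192 CPM per kilobase led, and Calca at 13.5 and Calcb at 6.78 were the lowest of these 7 peptides. After SCI the CGRP genes stayed first, Calca at 765 CPM per kilobase at 1d and Calcb at 300.4 at 3d. These are orders of medians, and in every sorted group the ranges of neighbours among these 7 peptides overlapped.

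**Figure D1:**
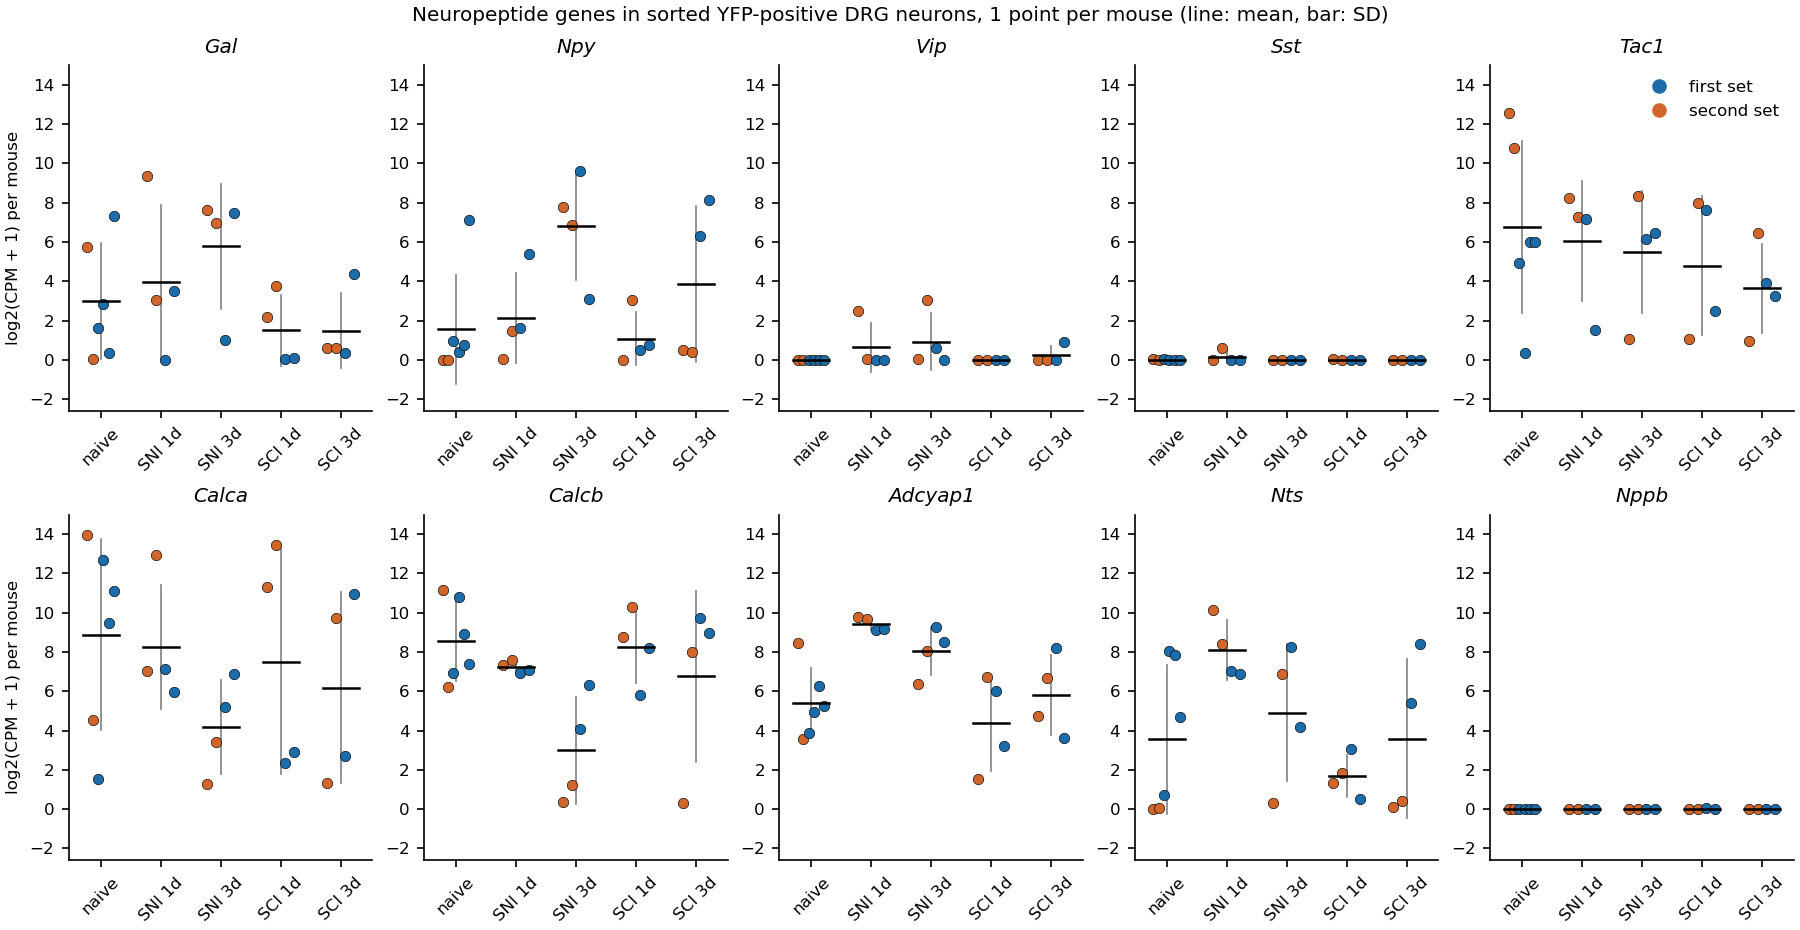
Level of the neuropeptide genes in sorted neurons, as log2(CPM + 1) on the vertical axis, for each mouse of the 5 groups, with horizontal lines for means, vertical bars for SD and the sets of libraries in colour. The 4 SNI 1d mice lay between 561 and 881 CPM for Adcyap1, all above the naive mice.

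Tests covered 23507 genes in sorted neurons, those reaching 20 reads in any mouse, and 17616 genes in whole DRG, those averaging 10 reads or more. A gene was called where edgeR's quasi-likelihood test gave a Benjamini-Hochberg adjusted p under 0.1 over all genes tested, and fold changes are on the log2 scale. In sorted neurons 8 of the 10 genes had enough reads, without Sst and Nppb, and in whole DRG 9 had, without Vip. At SNI 1d 1 of the 8 was called, Adcyap1, against 0.685% of all genes. At SNI 3d 1 of the 8 was called, Calcb, against 0.706% of all genes. An unadjusted p under 0.05 was found for 3 of the 8 at SNI 1d and 5 at SNI 3d, against 15% and 12.7% of all genes. The members went both ways, with a positive change in 4 of the 8 at SNI 1d, 5 at SNI 3d, 2 at SCI 1d and 3 at SCI 3d. Their median change was 1.09, 1.76, -0.87 and -1.05 in that order, beside 0.17, -0.01, 0.18 and 0.01 for all genes, and with 1 mouse left out it ran from 0.24 to 4.60, from 1.08 to 2.60, from -1.58 to 0.01 and from -2.29 to 0.43. Called counts at SCI 1d and SCI 3d were 0 of 8 by edgeR, against 0.017% and 0% of all genes, and 0 of 8 had an unadjusted p under 0.05 at either time, against 12.7% and 9.39% of all genes. DESeq2 called 0 of the 8 at SCI 1d, against 5.13% of all genes, and 1 at SCI 3d, against 5.2%, which was Vip, whose reads came from a single mouse. At the SNI times DESeq2 called 3 of the 8 at 1d and 5 at 3d, against 6.68% and 9.55% of all genes. Between the injuries 0 of 8 were called by edgeR at 1d and at 3d, against 0% of all genes each time, with 2 and 1 at an unadjusted p under 0.05, against 10.2% and 8.47% of all genes, and 3 and 1 called by DESeq2, against 4.69% and 4.26%. Without the glia-rich wells edgeR called Adcyap1 at SNI 1d, Calcb at SNI 3d and Adcyap1 for SNI 1d against SCI 1d, against 9.76%, 7.12% and 2.59% of all genes, and called no other member in any sorted comparison. In whole DRG after SCI 0 of 9 were called, against 2.32% of all genes, with 2 at an unadjusted p under 0.05, against 14.6% of all genes, and the same number called by DESeq2, against 5.27%. The SNI and SCI groups were compared with the same 6 naive mice, so those comparisons are not independent of each other.

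Adcyap1 encodes PACAP, a peptide of the secretin family that raises cyclic AMP in its target cells, and lies on chromosome 17 from 93199017 to 93206537 on the plus strand (GRCm38, ENSMUSG00000024256.6). In the naive sorted mice its level ran from 10.95 to 356 CPM with a median of 33.0 CPM. At SNI 1d it was 561 and 576 CPM in the first set and 881 and 823 CPM in the second set. All 4 mice were above every naive mouse, and the highest naive mouse, the 1d mouse of the second set, was far above the other 5 naive mice, whose highest was 77.1 CPM. Adcyap1 was the only 1 of the 8 tested members whose SNI 1d and naive mice did not overlap, as was so for 1.71% of all genes tested. The fitted change was 3.85 with an SE of 0.84 (edgeR's quasi-likelihood test, adjusted p = 0.0623, n = 4 and 6). Here, as in every comparison of these bulk libraries, a change in the number of cells of a type and a change in RNA per cell cannot be told apart. Within the sets the difference of mean log2(CPM + 1) was 4.08 in the first and 3.71 in the second set, with no overlap in either. The naive mice of the second set were at 356 and 10.95 CPM, and the latter mouse had only glia-rich wells, so the second-set difference rests partly on it. Without the glia-rich wells the change was as large, 3.94 (adjusted p = 0.0281). In the wells that were not glia-rich, Adcyap1 ran from 579 to 2449 CPM at SNI 1d in 8 wells and from 0.918 to 584 CPM in 11 naive wells. The adjusted p of the 10 alternative settings ran from 0.000176 to 0.682, and 4 of them kept the call. The main fit held 2 RUVr factors, which model unwanted variation. The call was lost with no RUVr factors, and with the set as a covariate or set and number as a replicate block in their place. Fits of this kind cannot tell a part of the set from the loss of the factors. Leaving out 1 mouse kept it in 16 of 22 refits. The adjusted p was 0.117 without mouse 1 and 0.116 without mouse 2 of the 1d naive mice of the first set, 0.105 without mouse 2 of the 3d naive mice of the first set, 0.118 without the 3d naive mouse of the second set, and 0.133 and 0.109 without mice 1 and 2 of SNI 1d in the second set.

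At SNI 3d Adcyap1 was 608 and 359 CPM in the first set and 80.3 and 264 CPM in the second set. The mice of the first set were above every naive mouse and those of the second set lay within the naive range. The second-set mouse at 80.3 CPM had only glia-rich wells. In wells that were not glia-rich Adcyap1 ran from 122 to 940 CPM at SNI 3d, with a median of 382 CPM. The naive wells of that kind ran from 0.918 to 584 CPM, with a median of 36.7 CPM. The fitted change was 2.66 with an SE of 0.81 and was not called (edgeR's quasi-likelihood test, adjusted p = 0.182), and it reached an adjusted p of 0.0633 without the 1d naive mouse of the second set. DESeq2 gave 0.0267, the lowest of the settings, which ran up to 0.792. The within-set differences were 3.80 in the first and 1.17 in the second set.

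After SCI Adcyap1 was 63.7, 8.15, 1.87 and 104 CPM at 1d and 295, 11.5, 26.1 and 99.5 CPM at 3d. The SCI 1d mice were all below the SNI 1d mice, and 2 of them were below every naive mouse. The fitted changes of Adcyap1 against naive were -0.22 with an SE of 0.81 at SCI 1d and 1.09 with an SE of 0.80 at SCI 3d (edgeR's quasi-likelihood test, adjusted p = 0.989 and 0.679), the latter -0.40 with the replicate number as a block. Set directly against SCI 1d, SNI 1d was higher by 4.07 with an SE of 0.99, a difference that did not pass over all genes (edgeR's quasi-likelihood test, adjusted p = 0.414, unadjusted p = 0.000554 in the fit across all genes). Within the sets it was 4.55 in the first and 5.61 in the second set. The adjusted p of that difference was 0.0623 without the glia-rich wells and 0.000335 by DESeq2, and the other settings ran up to 0.749. At 3d the same difference was 1.56 with an SE of 0.91 (adjusted p = 0.616).

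Nts encodes neurotensin and neuromedin N and lies on chromosome 10 from 102481756 to 102490486 on the minus strand. Its naive level ran from 0 to 259.7 CPM with a median of 12.6 CPM, and 3 of the 6 naive mice were under 1 CPM. At SNI 1d it was 131 and 115 CPM in the first set and 1140.5 and 333 CPM in the second set, and at SCI 1d 7.27, 0.428, 1.54 and 2.57 CPM. Every SNI 1d mouse was above every SCI 1d mouse, while SNI 1d overlapped the naive mice of the first set. Nts and Adcyap1 were the 2 of the 8 tested members whose SNI 1d and SCI 1d mice did not overlap, as was so for 4.36% of all genes tested. The difference between SNI 1d and SCI 1d was 8.49 with an SE of 2.19 (edgeR's quasi-likelihood test, adjusted p = 0.424, not called), and DESeq2 gave 1.35e-06, the lowest of settings that reached 0.791. Against naive the change was 5.42 with an SE of 1.73 at SNI 1d (adjusted p = 0.175, by DESeq2 0.0011, with settings up to 0.76) and -3.08 with an SE of 1.69 at SCI 1d (adjusted p = 0.472), and with 1 mouse left out it ran from 2.91 to 7.17 and from -3.74 to -1.33. The SNI 1d difference was 1.63 within the first set and 9.23 within the second set, where both naive mice were at or near 0, and the SCI 1d difference turned from -3.54 within the first set to 1.55 within the second set. At 3d the groups spread as widely as the naive mice, with 305, 17.4, 0.259 and 115 CPM after SNI and 41.4, 342, 0.0690 and 0.340 CPM after SCI. The highest single well held 31.1% of all Nts summed over the wells' CPM.

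Calca and Calcb are neighbouring paralogs on chromosome 7, Calca from 114631478 to 114636357 on the minus strand and Calcb from 114718643 to 114723365 on the plus strand. Calca yields calcitonin and alpha-CGRP by alternative splicing and Calcb yields beta-CGRP, a vasodilator peptide of nociceptors. Reads aligned to more than 1 place, 21.5% to 25.7% of the reads in the whole DRG files and 37% to 52.3% of those in the wells, were counted for no gene, so that reads placed on both paralogs are in neither count. Calcb ran from 74.6 to 2303 CPM in the naive mice with a median of 329 CPM. At SNI 3d it was 15.8 and 78.4 CPM in the first set and 0.285 and 1.34 CPM in the second set. Of these mice 3 of 4 were below every naive mouse, and the mouse at 78.4 CPM was above only the 3d naive mouse of the second set, so that 0 of the 8 tested members were free of overlap at SNI 3d, against 1.27% of all genes tested. Within each set the SNI 3d mice were all below the naive mice of that set. The difference of mean log2(CPM + 1) was -3.32 in the first and -7.91 in the second set. In the second set the SNI 3d mouse at 0.285 CPM and the naive mouse at 74.6 CPM had only glia-rich wells. The fitted change was -5.93 with an SE of 1.31 (edgeR's quasi-likelihood test, adjusted p = 0.0784, n = 4 and 6).

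The summed level of the markers of peptidergic nociceptors at SNI 3d was 23.1 and 54.7 CPM in the first set and 0.519 and 11.2 CPM in the second set, against the naive values given above, 3.02 to 679 CPM with a median of 201 CPM. Of the 4 sums 3 were above the 2 lowest naive mice. At SNI 1d the first-set sums, 3.84 and 6.99 CPM, were lower than at SNI 3d, beside 119 and 134 CPM of Calcb. The highest SNI 1d sum, 162 CPM, lay in the second set and above every SNI 3d sum. Calcb was 161 and 191 CPM in that set at SNI 1d. In the naive mice Calcb was 121, 1751, 489 and 168 CPM in the first set and 2303 and 74.6 CPM in the second set. All 6 markers of the list had reads at SNI 3d and in naive mice, and 5 of 6 had a negative fitted change, with a list median of -4.82. Of these markers 0 of 6 were called by edgeR, with 1 at an unadjusted p under 0.05 and 3 called by DESeq2. Their part in the Calcb result was not tested. Without the glia-rich wells Calcb was 19.5, 86.1 and 1.36 CPM in the 3 SNI 3d mice left, all below the 5 naive mice left, which ran from 145 to 4648 CPM, and the change was -4.45 (adjusted p = 0.0683). The Calcb call held in 4 of 10 settings, with an adjusted p between 6.98e-08 and 0.616. It was lost with no RUVr factors, and with the set as a covariate or set and number as a replicate block in their place. It held in 11 of 22 refits that left out 1 mouse. Leaving out mouse 1 or 2 of the 1d naive mice of the first set gave 0.118 and 0.149, and mouse 1 of the 3d naive mice of that set 0.107. Without SNI 1d mouse 2 of the first or of the second set it was 0.103 and 0.104. Without SNI 3d mouse 1 of the first set, or mouse 1 or 2 of the second set, it was 0.175, 0.127 and 0.146, and without SCI 1d mouse 1 or 2, or SCI 3d mouse 2, of the second set it was 0.101, 0.103 and 0.108 for Calcb.

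At SNI 1d Calcb was 119, 134, 161 and 191 CPM, within the naive range and with a small spread, and the change of -2.20 with an SE of 1.08 was not called (edgeR's quasi-likelihood test, adjusted p = 0.345). After SCI it was 54.6, 289, 437.5 and 1235 CPM at 1d and 851, 506, 0.253 and 253 CPM at 3d. Both SCI groups overlapped the naive mice, and the SCI 3d mouse at 0.253 CPM was the second-set mouse that had only glia-rich wells. The direct difference between SNI 3d and SCI 3d was -4.27 with an SE of 1.28 (edgeR's quasi-likelihood test, adjusted p = 0.584), and DESeq2 gave an adjusted p of 0.00336 for it, the lowest of settings that reached 0.933. It was -4.17 within the first set and -3.36 within the second set. The difference between Calcb at SNI 3d and at SCI 3d thus did not pass over all genes by edgeR.

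Calca varied more than 1000-fold among the naive sorted mice. Naive mice ran from 1.88 to 16137 CPM with a median of 1456 CPM. Levels were 138, 61.9, 129.9 and 7749 CPM at SNI 1d and 35.5, 116, 1.45 and 9.80 CPM at SNI 3d. All SNI 3d mice were under the naive median, but 2 of the 6 naive mice, mouse 1 of the 1d mice of the first set and the 3d mouse of the second set, lay in the same range. The SNI 3d change of -5.68 with an SE of 2.60 was not called (edgeR's quasi-likelihood test, adjusted p = 0.373), while DESeq2 gave 0.00509 and the settings reached 0.695. After SCI Calca was 4.04, 6.44, 2571 and 11316 CPM at 1d, low in the first set and high in the second set, and 5.43, 2002, 1.52 and 834 CPM at 3d. The highest of all wells, 34794 CPM, was a well of SNI 1d mouse 2 of the second set that counted as glia-rich by a narrow margin, with 8885 CPM of glial and 8582 CPM of pan-neuronal markers. Over the 22 mice Calca and Calcb had a Pearson r of 0.69 on log2(CPM + 1), a description over points that share depth, wells and normalisation.

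Tac1 encodes substance P and neurokinin A, excitatory tachykinins of nociceptors. Its naive level ran from 0.261 to 6143 CPM, with 6143 and 1735 CPM in the mice of the second set and at most 63.9 CPM in the first set. It was 143, 1.85, 302 and 152 CPM at SNI 1d, 69.3, 86.5, 1.09 and 321 CPM at SNI 3d, 194, 4.54, 1.12 and 254.5 CPM at SCI 1d and 14.0, 8.40, 0.921 and 87.0 CPM at SCI 3d. Every injured group overlapped the naive mice. The 2 sets differed in sign at SNI 3d, with a difference from naive of 1.97 in the first and -6.98 in the second set. Fitted changes against naive were smaller than their SE at SNI 1d, SNI 3d and SCI 1d and -2.95 at SCI 3d (edgeR's quasi-likelihood test, adjusted p = 0.684), a value that ran from -5.60 to -1.60 over the settings and from -4.67 to -1.23 with 1 mouse left out. The highest well, of the 1d naive mouse of the second set, held 51.5% of the wells' summed CPM for Tac1, and its nociceptor markers summed to 1108 CPM, against a median of 9.09 CPM over all wells.

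**Figure D2:**
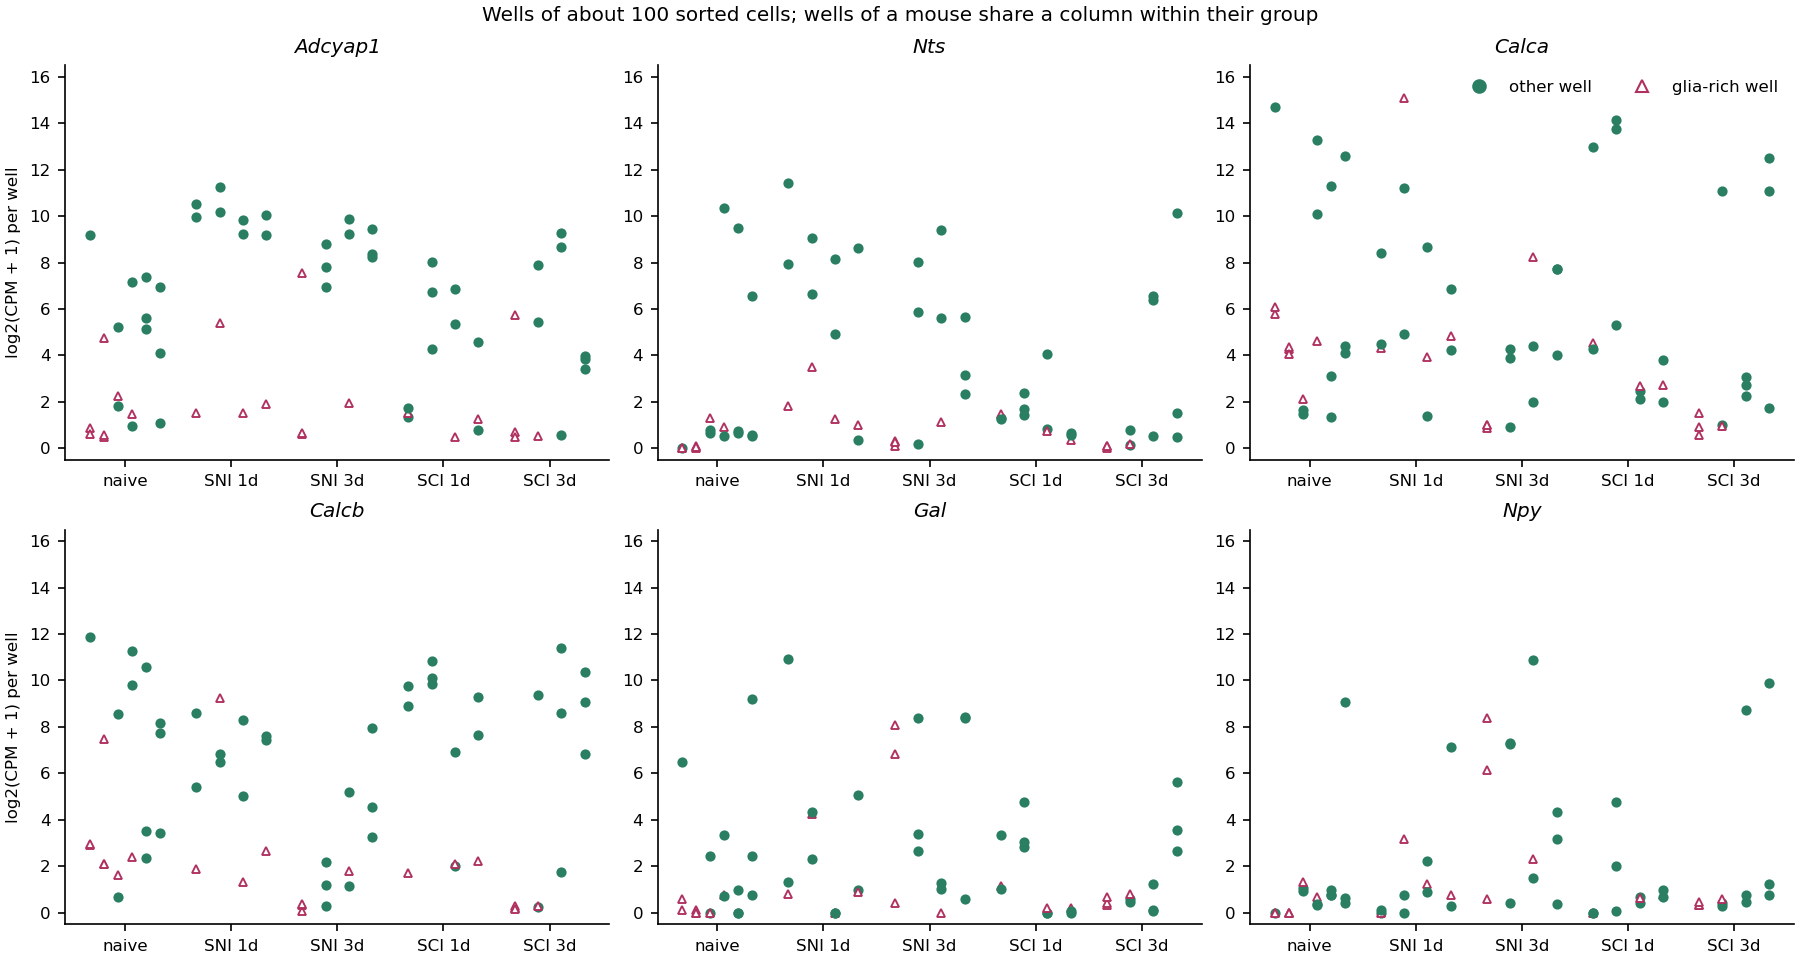
Level of neuropeptide genes in each sorted well, as log2(CPM + 1) on the vertical axis, by group, with glia-rich wells as open triangles and other wells as filled circles. The 8 other wells at SNI 1d lay between 579 and 2449 CPM for Adcyap1.

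Galanin, neuropeptide Y and vasoactive intestinal peptide are the peptides most often described as rising after a peripheral nerve is cut. Gal, the galanin precursor, ran from 0.0260 to 156.5 CPM in naive mice. It was 0, 10.2, 660.55 and 7.16 CPM at SNI 1d and 0.989, 179.8, 199 and 124 CPM at SNI 3d. A single mouse was above the naive mice at SNI 1d and 2 were at SNI 3d. The fitted changes, 2.36 with an SE of 2.13 at SNI 1d and 2.28 with an SE of 2.25 at SNI 3d, were close to their SE, and neither was called (edgeR's quasi-likelihood test, adjusted p = 0.67 and 0.714). The SNI 1d change was -2.46 without mouse 1 of the second set, which held the 660.55 CPM of Gal, and the SNI 3d change was 5.62 without mouse 2 of the 3d naive mice of the first set. After SCI Gal was 0.0239, 0.0475, 3.60 and 12.5 CPM at 1d and 0.288, 19.8, 0.529 and 0.520 CPM at 3d, all within or below the naive range. The fitted changes were -3.11 at SCI 1d and -2.67 at SCI 3d (adjusted p = 0.633 and 0.732). Both turned positive for Gal, to 0.054 and 1.14, without mouse 2 of the 3d naive mice of the first set, the highest naive mouse.

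Npy, the neuropeptide Y precursor, was at most 0.948 CPM in 5 of the 6 naive mice and 140.2 CPM in mouse 2 of the 3d naive mice of the first set. At SNI 3d it was 783, 7.48, 218 and 116 CPM, against 2.06, 40.7, 0.0257 and 1.78 CPM at SNI 1d. All SNI 3d mice were above those 5 naive mice, and 2 of the 4 were also above the sixth. The SNI 3d change was 6.34 with an SE of 2.45 (edgeR's quasi-likelihood test, adjusted p = 0.287, not called). It was 12.86 with an adjusted p of 0.0666 without that naive mouse, and DESeq2 gave 0.0128, the lowest of settings that reached 0.488 for Npy. Within the sets the SNI 3d difference was 4.03 in the first and 7.32 in the second set, where both naive mice had 0 reads. After SCI the levels were 0.431, 0.689, 0 and 7.30 CPM at 1d and 77.4, 283, 0.414 and 0.340 CPM at 3d, so that the 2 first-set mice of SCI 3d reached the SNI 3d range. The difference between SNI 3d and SCI 3d was 4.39 (adjusted p = 0.612), as low as 1.64 over the settings, and was -0.87 within the first set and 6.86 within the second set.

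Vip, the precursor of vasoactive intestinal peptide, had 0 reads in all 6 naive mice. It had 0, 0, 356 and 1 reads at SNI 1d, 25, 0, 1 and 506 reads at SNI 3d, 0 in every SCI 1d mouse and 51 reads in a single SCI 3d mouse. Its reads thus lay in a few mice, and 6 of the 66 wells held all of them. Taking 3 reads over the naive group as the floor, which is 0.00893 CPM and covers counting error only, the mean was at least 129-fold higher at SNI 1d, at least 221-fold at SNI 3d and at least 24.9-fold at SCI 3d. Vip was not called by edgeR's quasi-likelihood test at SNI 1d or SNI 3d (adjusted p = 0.227 and 0.268). It was called at SNI 1d without SCI 3d mouse 2 of the first set or mouse 1 of the second set (0.0448 and 0.0965), and at SNI 3d without the same first-set mouse or SNI 3d mouse 1 of the second set (0.0614 and 0.0926). DESeq2 called it in both. Over the 22 mice Gal and Vip had an r of 0.51 and Adcyap1 and Nts an r of 0.51, again as descriptions only.

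Sst encodes somatostatin, an inhibitory peptide, and Nppb encodes B-type natriuretic peptide, and both mark small classes of itch-related neurons. In sorted neurons Sst had 3 reads over the naive mice, 18 reads in SNI 1d mouse 2 of the second set and 1 read in an SCI 1d mouse. Nppb had 1 read, in an SCI 1d mouse, over the 66 wells. Both were thus near 0 in the sorted cells and measurable only in the whole ganglion, whose libraries were made with another kit.

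**Figure D3:**
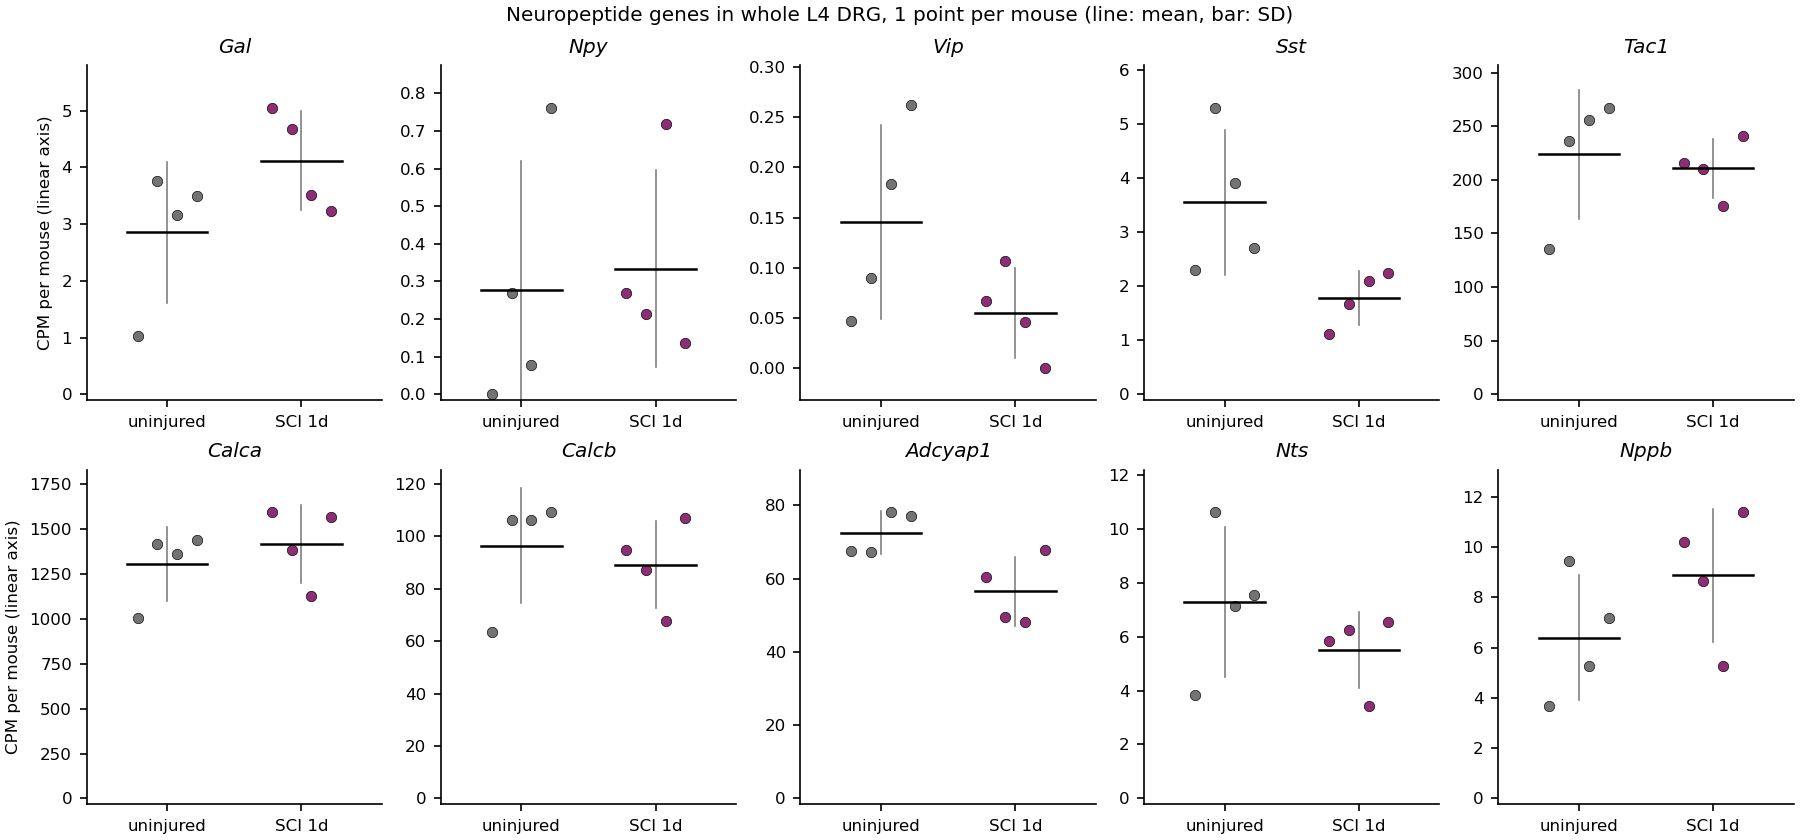
Level of the neuropeptide genes in whole DRG, as CPM on a linear vertical axis that differs between genes, for each of 4 uninjured mice and 4 mice 1d after SCI, with horizontal lines for means and vertical bars for SD. Sst ran from 1.11 to 2.25 CPM after SCI and from 2.29 to 5.29 CPM in uninjured mice.

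In whole DRG, where only uninjured and SCI 1d libraries were compared, Sst was 2.29, 5.29, 3.90 and 2.70 CPM in uninjured mice and 1.11, 1.68, 2.08 and 2.25 CPM after SCI. All 4 SCI mice were below all 4 uninjured mice, by a narrow gap between 2.25 and 2.29 CPM, and Sst was the 1 of the 9 tested members whose groups did not overlap, a share close to the 11% of all genes tested. The change was -1.02 with an SE of 0.29, which was not called (edgeR's quasi-likelihood test, adjusted p = 0.14, n = 4 and 4). It was called for Sst by DESeq2 (0.0242), with no filter on low counts (0.0475) and without uninjured mouse 1 (0.0819), and the alternatives reached 0.312. Adcyap1 was 67.6, 67.2, 78.1 and 77.1 CPM in uninjured mice and 60.5, 49.5, 48.3 and 67.9 CPM after SCI. Of the SCI mice 3 were below every uninjured mouse, and the change was -0.36 with an SE of 0.11 (edgeR's quasi-likelihood test, adjusted p = 0.176). It was called for Adcyap1 by DESeq2 (0.0915) and without SCI mouse 4 (0.0909), and the alternatives reached 0.38.

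The other whole DRG values overlapped between the groups. Calca was 1003, 1419, 1359 and 1441 CPM in uninjured mice and 1593, 1381, 1126.5 and 1567 CPM after SCI. Tac1 was 135, 237, 256 and 267 CPM in uninjured mice and 216, 209.8, 175 and 241 CPM after SCI. Calcb was 63.5, 106, 106 and 109 CPM in uninjured mice and 94.9, 87.1, 67.6 and 107 CPM after SCI. Uninjured mouse 1, the library with the fewest reads, was the lowest of its group for these 3 and for every other member but Adcyap1. Its large-diameter markers summed to 8339 CPM, against 5975 to 6459 CPM in the other uninjured mice. Gal was 1.03, 3.76, 3.16 and 3.49 CPM in uninjured mice and 5.05, 4.67, 3.52 and 3.24 CPM after SCI. Nts was 3.84, 10.6, 7.14 and 7.53 CPM in uninjured mice and 5.85, 6.24, 3.43 and 6.52 CPM after SCI. Nppb was 3.70, 9.43, 5.28 and 7.19 CPM in uninjured mice and 10.2, 8.67, 5.28 and 11.4 CPM after SCI. The fitted changes were 0.49 for Gal, -0.43 for Nts and 0.44 for Nppb (edgeR's quasi-likelihood test, adjusted p = 0.502, 0.522 and 0.522). With 1 mouse left out they ran from 0.25 to 0.64, from -0.63 to -0.19 and from 0.27 to 0.69, lowest for Gal and Nppb without uninjured mouse 1. The changes of Calca, Calcb, Tac1 and Npy were smaller than their SE. Npy was at most 0.761 CPM, and Vip had 22 reads in uninjured mice and 7 after SCI. The members' median change was -0.09, where that of all genes was 0.01. The 6 nociceptor markers summed to 1716 CPM in uninjured mice and 1680 CPM after SCI, with 0 of 6 called by edgeR, 1 at an unadjusted p under 0.05 and 0 by DESeq2. Markers of blood moved in these libraries. The 5 red blood cell genes, led by Hbb-bs, summed to 21.3, 20.3, 19.3 and 13.4 CPM in uninjured mice and 61.2, 88.6, 70.1 and 20.7 CPM after SCI, with 4 of 5 called higher and none at 0. Leaving out 1 of the 8 mice kept the call of Hbb-bs in 5, of Hba-a1 and Hbb-bt in 2 each and of Hba-a2 in 1 of 8 refits, and their part in the Sst and Adcyap1 values was not tested.

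Of the 16 genes that cut, amidate or store peptides, all were tested in both materials. In whole DRG 0 of 16 were called by edgeR, with 2 at an unadjusted p under 0.05 and 1 called by DESeq2. The summed level was 4212 CPM in uninjured mice and 4205 CPM after SCI. In sorted neurons edgeR called 0 of 16 at SNI 1d, SCI 1d and SCI 3d, where 2, 2 and 4 had an unadjusted p under 0.05 and DESeq2 called 0, 1 and 2. At SNI 3d 2 were called lower by edgeR, with 6 at an unadjusted p under 0.05 and 4 called by DESeq2. Chga, the vesicle protein chromogranin A, had a median of 63.3 CPM in naive and 25.8 CPM in SNI 3d mice, with 1 SNI 3d mouse below every naive mouse, and a change of -1.58 with an SE of 0.39 (edgeR's quasi-likelihood test, adjusted p = 0.0971). Cadps, which primes dense-core vesicles for release, had medians of 273 and 235 CPM and a change of -0.91 with an SE of 0.23 (adjusted p = 0.0991). Both lay at the threshold, and leaving out 1 mouse kept the call of Chga in 5 and of Cadps in 3 of 22 refits and brought the change as near to 0 as -0.23 for Chga and -0.22 for Cadps. The call of Chga held in 3 of 10 settings, with an adjusted p up to 0.941, and that of Cadps in 1 of 10, with an adjusted p up to 0.845. Cpe, a carboxypeptidase that trims precursors, was the most abundant gene of the list at SNI 1d, with 909 ± 25.0 CPM (SD, n = 4).

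The receptors of these peptides were a list of 29 genes, of which 21 were tested in whole DRG and 22 in sorted neurons. In whole DRG after SCI 1 was called higher and 3 lower by edgeR, against 2.32% of all genes called. By edgeR 7 of the 21 had an unadjusted p under 0.05, against 14.6% of all genes, and DESeq2 called 4, against 5.27%. Ramp2, a subunit that fits the calcitonin receptor-like receptor to adrenomedullin, was 12.1 to 13.8 CPM in uninjured and 19.2 to 23.7 CPM in SCI mice, a change of 0.74 with an SE of 0.10 (edgeR's quasi-likelihood test, adjusted p = 0.00925). Galr1, a galanin receptor, was 8.69 to 9.87 CPM in uninjured and 4.21 to 6.39 CPM in SCI mice, a change of -0.84 with an SE of 0.14 (adjusted p = 0.0227). Sstr2, a somatostatin receptor, was 8.00 to 8.63 CPM in uninjured and 4.56 to 6.16 CPM in SCI mice, a change of -0.66 with an SE of 0.11 (adjusted p = 0.0241). For these 3 genes the groups did not overlap, as was so for 11% of all genes tested. The 3 calls held when any 1 of the 8 mice was left out. Those of Ramp2 and Galr1 also held in 5 of 5 settings and that of Sstr2 in 4 of 5, with an adjusted p up to 0.105. Npr3, the clearance receptor for natriuretic peptides, changed by -0.67 (adjusted p = 0.0637) and was called in 3 of 8 such refits. In sorted neurons 0 of 22 were called by edgeR in any of the 6 comparisons, with 2 to 4 at an unadjusted p under 0.05 and 0 to 3 called by DESeq2. Sort1, the sorting receptor that also binds neurotensin, was the most abundant of the list in uninjured whole DRG, at 85.1 ± 6.80 CPM (SD, n = 4).

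A list of 38 other neuropeptide precursors had 10 genes tested in whole DRG and 25 in sorted neurons. In whole DRG after SCI Cartpt, the CART precursor, was 3.70 to 7.14 CPM in uninjured and 9.92 to 11.0 CPM in SCI mice, a change of 0.77 with an SE of 0.17 (edgeR's quasi-likelihood test, adjusted p = 0.0708) that was called in 2 of 8 refits leaving out 1 mouse. At SNI 1d 2 of the 25 were called higher by edgeR, with 9 at an unadjusted p under 0.05 and 9 called by DESeq2. Grp, the precursor of gastrin-releasing peptide, had 6 reads over the naive mice and 99 to 1005 reads in each SNI 1d mouse, a change of 8.82 with an SE of 2.00 (adjusted p = 0.0694) that was called in 13 of 22 such refits. Nms, the neuromedin S precursor, had 0 naive reads and 401 reads at SNI 1d, at least 162-fold higher as a mean (edgeR's quasi-likelihood test, adjusted p = 0.042). Of these reads 361 were in 1 mouse, so that the bound rests mostly on it, and 1 of the 4 mice had none. The Nms call was lost without SNI 1d mouse 1 of the second set (0.128) or the 1d naive mouse of the second set (0.26). It was also lost in 6 of 10 settings, with an adjusted p up to 0.729. Nms also had 232 reads at SCI 1d, 230 of them in 1 mouse, and 98 at SCI 3d, 97 of them in 1 mouse, at least 98.0-fold and 47.6-fold higher as means and not called (adjusted p = 0.143 and 0.332), and 0 reads at SNI 3d. In the other sorted comparisons against naive 0 of 25 were called by edgeR, with 4 to 6 at an unadjusted p under 0.05 and 3 to 6 called by DESeq2. Nmb, the neuromedin B precursor, was the most abundant of the list in naive sorted mice, at 65.0 ± 66.8 CPM (SD, n = 6).

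Injury response genes show what the sorted cells of the same mice did. Of 10, 3 were called higher by edgeR at SNI 1d, Atf3, Sox11 and Gadd45a, and 4 at SNI 3d, where Sprr1a joined them. All 10 had a positive change at both times. An unadjusted p under 0.05 was found for 8 at SNI 1d and 7 at SNI 3d, and DESeq2 called 8 and 7. Atf3, a transcription factor of injured neurons, ran from 14.2 to 224.9 CPM in naive, 583 to 1305 CPM in SNI 1d and 63.4 to 314 CPM in SCI 1d mice. Its SNI 1d change was 3.81 with an SE of 0.66 (edgeR's quasi-likelihood test, adjusted p = 0.0336), and the call held when any 1 of 22 mice was left out and in 6 of 10 settings. The other calls were less stable, with Sox11 kept in 16 and Gadd45a in 14 of 22 refits at SNI 1d, and Atf3 in 15, Sprr1a in 14, Gadd45a in 11 and Sox11 in 8 of 22 at SNI 3d, each in 4 of 10 settings. At SCI 1d and SCI 3d 0 of 10 were called by edgeR, with 1 and 3 at an unadjusted p under 0.05 and 1 and 2 called by DESeq2. In whole DRG after SCI Atf3 rose by 2.39 and Jun by 0.68 (adjusted p = 0.00431 and 0.00893), while Sox11 and Gadd45a were not called. Of the 9 injury genes tested there 5 had an unadjusted p under 0.05 and 4 were called by DESeq2. The remaining marker lists had few calls after SCI in whole DRG, which were Mrgprd of 6 non-peptidergic nociceptor genes, Cx3cr1 of 8 macrophage genes and Lum of 6 fibroblast genes, all lower, and Glul of 9 glial genes, higher. The rest of 2 of these lists leaned the other way, with a positive change in 7 of 8 macrophage genes and a negative one in 6 of 9 glial genes. An unadjusted p under 0.05 was found for 5 of the 9 glial, 4 of the 8 macrophage and 3 of the 6 fibroblast genes, and DESeq2 called 3, 2 and 1 of them. Of the non-peptidergic nociceptor genes 5 of 6 had a negative change, 4 of 6 an unadjusted p under 0.05 and 2 were called by DESeq2. Leaving out 1 of the 8 mice kept the call of Glul in 4, of Mrgprd in 3, of Lum in 2 and of Cx3cr1 in 1 of 8 refits. Pan-neuronal, large-diameter, neutrophil and endothelial lists had 0 called by edgeR there, with at most 1 gene of each at an unadjusted p under 0.05 or called by DESeq2. The neutrophil genes had a positive change in 6 of 6, with a median of 0.80, and summed to a mean of 16.7 CPM in uninjured mice and 27.9 CPM after SCI. In the sorted comparisons against naive edgeR called 0 genes of all 10 marker lists, with at most 4 of a list at an unadjusted p under 0.05 and at most 5 called by DESeq2. Single sorted mice nevertheless held many reads of other cells. The 6 fibroblast genes summed to 66918 CPM in SCI 3d mouse 1 of the second set and to 13247 CPM in the 1d naive mouse of that set, against at most 916 CPM in the other mice. The macrophage genes summed to 1047 CPM in the same SCI 3d mouse and to 392 and 499 CPM in the 2 naive mice of that set, and the red blood cell genes to 1399 CPM in mouse 1 of the 1d naive mice of the first set, against at most 4.41 CPM in the other mice. Between the injuries edgeR also called 0 genes of these lists, with at most 3 of a list called by DESeq2, but for SNI 1d against SCI 1d 7 of 8 macrophage genes had an unadjusted p under 0.05, all higher after SNI. The macrophage genes summed to 2.63, 2.40, 280 and 5.23 CPM at SNI 1d and to 0, 0, 0.505 and 2.90 CPM at SCI 1d, and their part in the differences of Adcyap1 and Nts between these groups was not tested.

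The genes whose levels followed Adcyap1 most closely over the 22 sorted mice were Fads3, Lrrc2 and Lmo7, with a Pearson r of 0.88, 0.87 and 0.83 on log2(CPM + 1). Fads3 averaged 13.8 CPM in naive, 48.1 CPM in SNI 1d, 53.0 CPM in SNI 3d, 17.3 CPM in SCI 1d and 15.5 CPM in SCI 3d mice. Its highest mean was thus at SNI 3d, while that of Adcyap1 was at SNI 1d. Among those closest to Calcb were Rab37 and Serpina3g, with an r of 0.88 and 0.87. Rab37 averaged 43.7 CPM in naive and 6.07 CPM in SNI 3d mice. These values describe points that share libraries, depth and normalisation.

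Because cyclic AMP and AP-1 factors are known regulators of neuropeptide genes, the promoters were searched for their core letters. RefSeq promoters of 300 bases (250 before and 50 after the start, GRCm38.p6) were found for 9 of the 10 genes, all but Calcb. The letters were TGACGTCA, the cyclic AMP response element, its variant TGACGTAA, and TGANTCA for AP-1, each read on both strands, and no 2 matches overlapped. These occur in 1.79%, 0.499% and 7.81% of the 32851 promoters. A match was found in 2 of the 9, Sst and Nts, and these 2 promoters are printed as the ones that hold one. Neither gene was called by edgeR in the main fits. Capitals mark the match, a cyclic AMP response element at bases 203 to 210 of Sst (chr16:23890795-23891094, minus strand) and an AP-1 element at bases 44 to 50 of Nts (chr10:102490369-102490668, minus strand). A match describes letters and shows no binding.
Sst: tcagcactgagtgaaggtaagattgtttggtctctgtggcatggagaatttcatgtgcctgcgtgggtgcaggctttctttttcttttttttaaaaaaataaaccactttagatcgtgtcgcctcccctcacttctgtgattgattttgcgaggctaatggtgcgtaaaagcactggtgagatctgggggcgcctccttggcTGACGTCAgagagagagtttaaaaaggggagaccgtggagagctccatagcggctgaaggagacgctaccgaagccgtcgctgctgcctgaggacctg
Nts: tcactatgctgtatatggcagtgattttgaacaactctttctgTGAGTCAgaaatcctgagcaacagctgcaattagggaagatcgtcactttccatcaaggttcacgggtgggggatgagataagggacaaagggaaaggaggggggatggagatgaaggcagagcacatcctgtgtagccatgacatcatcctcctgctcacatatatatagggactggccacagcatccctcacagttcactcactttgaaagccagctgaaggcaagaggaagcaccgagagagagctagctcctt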

How the data were processed

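The deposited files hold raw HTSeq counts per gene, which the authors made with cutadapt, PRINSEQ, STAR 2.5.3a on mm10 and HTSeq 0.6.1. Per-sample columns of the authors' comparison tables, the whole DRG SNI and DLK knockout libraries among them, match no sample here and were not used here. The 5 closing lines of each file were removed and the 3 wells of a mouse summed. Symbols and positions came from GENCODE vM21, in which 53274 of 53379 identifiers matched. Genes averaging 10 or more reads in whole DRG, or reaching 20 reads in 1 or more sorted mice, were fitted with edgeR 4.0.16 (TMM, quasi-likelihood F-test, two-sided, Benjamini-Hochberg, adjusted p under 0.1) in R 4.3.3. The sorted fit held all 22 mice and 2 RUVr factors from gene-centred residuals, as the authors used 2 such factors. The factors were rounded, with a fixed sign, after a rerun of the code had moved the DESeq2 values. The authors left out outlying libraries that they did not name, and none was left out here. The SE is the log2 fold change over the square root of F. CPM use TMM-scaled totals. Alternatives were DESeq2 1.42.0, RLE size factors, other filters, no or uncentred factors, the set as a covariate, a replicate block, 1-day or 3-day naive mice only, no glia-rich wells, an adjusted p under 0.05, and each mouse left out. In sorted mice the set and the replicate block took the place of the RUVr factors. The code was tested on simulated data. Members and lists were chosen with earlier results of these data known. All 10 members were named in each comparison, together with every called gene of the 4 lists of related genes, up to 5 per direction and list, a most abundant gene of each of those lists, and genes among the 3 most alike in pattern to each called member, of which 1 is not reported here. Where 5 or fewer markers were called, they were named after their values were seen.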

Additional observations from a re-analysis of the deposited data

Results flagged for a closer look

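In 13 of 62 pairs of a gene and a group, 1 mouse lay far from the rest, as the gap to the nearest mouse over the whole range of log2(CPM + 1), where chance gives about 1 in 20 groups. For 4 of the pairs only 1 mouse had any reads, which fixes the value at 1, and without them it was 9 of 58. In whole DRG uninjured mouse 1 was the lowest for Gal (0.843), Calca (0.838) and Calcb (0.953). In the first set of sorted mice, Gal was far above the rest in SCI 3d mouse 2 (0.938) and far below in SNI 3d mouse 1 (0.897), Npy was far above the other naive mice in mouse 2 of the 3d naive mice (0.865), and Tac1 was far below in SNI 1d mouse 2 (0.841). Vip (1) in SCI 3d mouse 2 and Nppb (1, from 1 read) in SCI 1d mouse 1 of the same set had all the reads of their group. In the second set, Vip in SNI 1d mouse 1 (0.984) and Calca in SNI 1d mouse 2 (0.835) were far above the rest, and Sst had all of its group's reads in SNI 1d mouse 2 (1) and in SCI 1d mouse 1 (1, from 1 read).

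For Nts at 1d, every SNI mouse lay above and every SCI mouse below the naive mean of log2(CPM + 1), with group means 6.43 apart, the only such case among 20 pairs of a gene and a day. Against the naive mice of their own set the SCI 1d mice differed by -3.54 in the first and 1.55 in the second set. That each side differed from naive in opposite directions was not tested in this form, and the direct test of SNI 1d against SCI 1d by edgeR did not pass (adjusted p = 0.424).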

How the results depend on the processing

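Which of the genes were called depended on the processing, and the cause was not tested. By DESeq2 the number called was 2 in whole DRG, 3 at SNI 1d, 5 at SNI 3d, 1 at SCI 3d, 3 for SNI 1d against SCI 1d and 1 for SNI 3d against SCI 3d, beside 929, 1571, 2245, 1223, 1102 and 1002 of all genes. With no filter on low counts it was 1 in whole DRG, and without glia-rich wells 1 for SNI 1d against SCI 1d. At SNI 1d and at SNI 3d it was 0 with an adjusted p under 0.05, with no RUVr factors, with uncentred factors, with the set as a covariate, with set and number as a replicate block and with naive mice of the same day only. Leaving out 1 mouse in turn gave 0 to 1 in whole DRG and 0 to 2 at SNI 1d and at SNI 3d. At SCI 1d it was 0 in all alternatives.

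Directions of fold changes larger than their SE mostly held. Over 31 such results, which do not include those of Vip, 257 alternative values kept direction and side of the threshold, 12 lost and 11 gained a call. With 1 mouse left out 587 kept both, 17 lost and 4 gained. The calls that Vip gained, given above, are not in these counts. As 29 of the 31 were not called to begin with, most had no call to lose. The 2 that were called lost it in 12 of 20 alternatives and in 17 of 44 refits without 1 mouse, and 26 called results of other genes lost it in 82 of 185 and in 156 of 362. The exceptions were Gal, which was -2.88 at SNI 1d and -0.29 at SNI 3d with uncentred factors, and with 1 mouse left out ran from -2.46 to 5.41 at SNI 1d, from -4.67 to 0.054 at SCI 1d and from -6.39 to 1.14 at SCI 3d. With naive mice of the same day only Calcb at SCI 3d was 0.43 and Tac1 in SNI 3d against SCI 3d was -0.17. Adcyap1 at SCI 3d was -0.40 with the replicate block and ran from -0.041 to 1.61 with 1 mouse left out. Mice of the same number had a residual r above 0.1 in 1 of 4 pairs in whole DRG, where 3 of 12 pairs of different numbers had it, and in 8 of 48 pairs of sorted mice. With 2 mice in most groups of a set the residuals mirror each other, so that those 8 pairs hold 4 different values and pairs of different numbers are no separate comparison. The numbers are not taken to pair the mice, since not every pair was alike. The replicate block called 127 genes in whole DRG.

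Counts over all genes moved as widely. Without the glia-rich wells they went from 161 to 2200 at SNI 1d, from 166 to 1604 at SNI 3d, from 4 to 435 at SCI 1d, from 0 to 60 at SCI 3d and from 0 to 584 for SNI 1d against SCI 1d, and with no RUVr factors to 0 at both SNI times. With 1 mouse left out they ran from 104 (without uninjured mouse 3) to 640 (without SCI mouse 3) in whole DRG, from 30 (without SNI 1d mouse 1 of the second set) to 592 (without SNI 3d mouse 1 of the second set) at SNI 1d, and from 9 (without SNI 3d mouse 2 of the second set) to 896 (without the 3d naive mouse of the second set) at SNI 3d.

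Several limits bear on these values. About 100 cells per well and a biological coefficient of variation of 1.2 among sorted mice, against 0.133 in whole DRG, limit what a change in sorted neurons can show. Counts of 0 in the naive mice allow up to 0.00893 CPM over the group. Whole DRG libraries after SNI were not analysed here.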
